A study of Mus musculus with 10 samples.

Results

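The 10 genes described here encode TRIM28 and the proteins that work with it, or beside it, in heterochromatin: *Trim28*, *Setdb1*, *Atf7ip*, *Cbx1*, *Cbx3*, *Cbx5*, *Ehmt1*, *Ehmt2*, *Morc3* and *Smarcad1*. They were chosen by function, and all 10 were found among the 21774 protein-coding genes of RefSeq on GRCm38, the mouse genome build of the peak list. The members of the data are the ZFP266 DamID-seq peaks that overlapped 1 of these genes or lay within 50 kb of it, which came to 30 of the 15119 peaks of the study. Of the 10 genes, 7 had at least 1 such peak and 3 (*Trim28*, *Cbx1* and *Ehmt1*) had none.

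ZFP266 is a KRAB zinc finger protein. Most proteins of this family bind DNA through their zinc fingers and recruit TRIM28, a scaffold that brings in the histone methyltransferase SETDB1 and HP1 proteins, so that histone H3 is trimethylated at lysine 9 and the site is silenced. Many of them bind transposable elements, and B1 SINEs are among the most abundant of these in the mouse genome: short elements of rodents that derive from the 7SL RNA of the signal recognition particle and lie mostly in introns and between genes.

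In DamID-seq, a protein is fused to the bacterial methyltransferase Dam, which methylates the adenine of nearby GATC sequences, and sequencing of the fragments between such sites maps where the fusion protein was. Mouse embryonic fibroblasts (MEFs) of strain 129 received by nucleofection either a plasmid for Dam only (5 samples) or a plasmid for Dam fused to ZFP266 (5 samples). Both plasmids carried mOrange as the first reading frame behind the PGK promoter, so that Dam was made only by translation re-initiation and at a low level, and transfected cells were sorted 48 h later. The authors pooled the 10 samples to call regions with more signal in Dam-ZFP266 than in Dam only, which gave 1 list. The list holds no value of a single sample, so the sequencing depth behind each peak is unknown, neither a replicate error nor a test could be computed, and each count below is set beside the same count over all genes or all peaks. A gene without a peak is a gene where the list has no call, and binding of ZFP266 below the detection limit of the experiment was not measured. All peaks started and ended at a GATC, so that peak edges mark restriction fragments and a binding site may lie anywhere inside them.

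B1 SINEs were found with a 140-bp query that is the majority sequence of B1 copies of the mouse genome, and an alignment of at least 80 bp at 70% identity counted as a B1 SINE. In the 30 peaks there were 22 of them. Their identity to the query ran from 72.9 to 96.4%. The query is printed first, followed by 1 B1 copy from each of 6 peaks. Where a peak held several copies, the closest to the query is shown, so the printed copies lean towards close ones. The copies are written in the direction of the B1 element, and capitals mark bases that are substituted or inserted relative to the query.
B1 query: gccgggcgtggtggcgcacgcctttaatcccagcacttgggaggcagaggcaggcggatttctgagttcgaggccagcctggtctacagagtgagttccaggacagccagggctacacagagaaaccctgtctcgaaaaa
Setdb1 peak 2, chr3:95376825-95376964, plus strand: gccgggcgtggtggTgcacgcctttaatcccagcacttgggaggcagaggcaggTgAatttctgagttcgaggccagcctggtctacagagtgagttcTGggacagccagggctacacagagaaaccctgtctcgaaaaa
Cbx5 peak 1, chr15:103237762-103237902, plus strand: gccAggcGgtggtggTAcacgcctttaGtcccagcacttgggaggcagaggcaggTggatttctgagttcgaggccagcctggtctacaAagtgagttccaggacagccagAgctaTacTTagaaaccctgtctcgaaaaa
Atf7ip peak 4, chr6:136493957-136494096, plus strand: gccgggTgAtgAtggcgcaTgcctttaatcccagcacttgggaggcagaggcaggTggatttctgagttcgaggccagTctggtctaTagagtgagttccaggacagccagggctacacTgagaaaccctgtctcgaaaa
Atf7ip peak 5, chr6:136499042-136499140, minus strand: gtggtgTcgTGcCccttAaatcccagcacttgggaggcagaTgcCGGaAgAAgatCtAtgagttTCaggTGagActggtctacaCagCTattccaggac
Morc3 peak 1, chr16:93778779-93778918, plus strand: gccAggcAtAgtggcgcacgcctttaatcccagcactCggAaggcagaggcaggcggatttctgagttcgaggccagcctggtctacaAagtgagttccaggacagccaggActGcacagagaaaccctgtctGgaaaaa
Smarcad1 peak 1, chr6:65044670-65044811, minus strand: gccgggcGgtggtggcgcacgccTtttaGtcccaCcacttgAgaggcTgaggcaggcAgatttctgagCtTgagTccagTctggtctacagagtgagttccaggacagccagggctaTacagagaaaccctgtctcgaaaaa
The copy at *Setdb1* was the closest to the query in any of the 30 peaks, at 96.4% identity with 5 substituted bases. The copy in *Atf7ip* peak 5, the peak with the highest signal value near the 10 genes, was among the most diverged, at 77.0% identity over 99 bp. Peaks are numbered along the chromosome, separately for each gene.

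The peaks were spread unevenly over the 10 genes. *Atf7ip* had 16 peaks, *Morc3* 4, *Cbx3* 3, *Setdb1*, *Cbx5* and *Ehmt2* 2 each and *Smarcad1* 1, so that *Atf7ip* held 53.3% of them. Among all protein-coding genes 49.0% had a peak within 50 kb, against 7 of the 10 genes (70%). The share was 52.8% among the 13802 genes whose length lay within the range of the 10 genes, and 62.3% among the 9208 genes whose B1 SINE density lay within their range. With 10 genes, 7 called is near these shares and is not a result about the group.

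**Figure D1:**
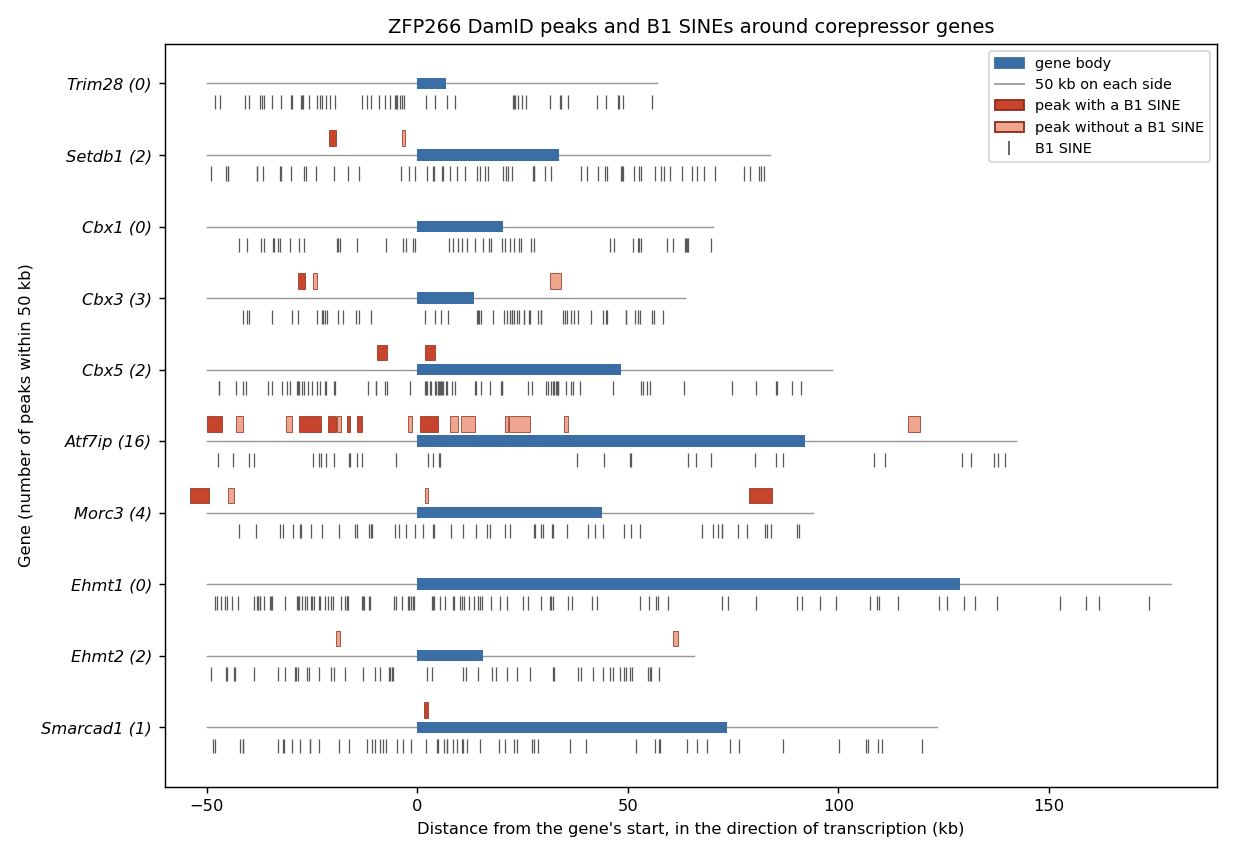
Map of the 10 genes, aligned at the start of the gene record and drawn in the direction of transcription, with the distance in kb on the x axis and 1 gene per line. Blue bars are gene bodies, grey lines the 50 kb on each side, dark red boxes peaks with a B1 SINE, pale boxes peaks without one (drawn at least 0.8 kb wide), and ticks all B1 SINEs. *Atf7ip* carries a run of peaks from 50 kb upstream into its first intron, while the lines of *Trim28*, *Cbx1* and *Ehmt1* have many ticks and no box.

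A peak overlapped the gene itself at 4 of the 10 genes (40.0%): *Cbx5*, *Atf7ip*, *Morc3* and *Smarcad1*. Among all protein-coding genes the share was 17.4%. It was 18.6% among genes whose length lay within the range of the 10 genes, and 18.5% among those within their range of B1 SINE density. These ranges are wide (6.88 to 129 kb, and 18.2 to 53.9 B1 SINEs per 100 kb), so these genes are not matched to the 10. Counting only peaks with a q (adjusted p-value) under 0.05 and a signal value above 1, a peak overlapped the gene at 2 of the 10 genes. Of the 30 peaks, 9 overlapped 1 of the 10 genes, 17 lay upstream and 4 downstream. Of the 17 upstream peaks, 9 were at *Atf7ip* alone. The same split over all gene windows was not computed, so it is not read as a trait of the group.

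*Trim28*, which encodes the scaffold protein itself, had no peak within 50 kb. The gene (chr7:13024152-13031032, plus strand) is 6.88 kb long, the shortest of the 10, and the nearest peak lay 79.5 kb upstream (chr7:12943465-12944696), with a signal value of 0.995 and 2 B1 SINEs. The signal value is the list's measure of Dam-ZFP266 over Dam only, on a scale that is not stated in the sources used here, and the median over all 15119 peaks was 0.898. The 107-kb window of *Trim28* held 53 B1 SINEs, 8 of them at 95% identity or more to the query, and 306 GATC fragments.

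*Setdb1* and *Atf7ip* encode the methyltransferase that TRIM28 recruits and its stabilising partner. *Setdb1* (chr3:95323525-95357202, minus strand) had 2 peaks, both upstream of the gene and in intergenic sequence. Peak 1 (chr3:95360110-95360885) lay 2.91 kb from the gene, with a signal value of 0.998 and q = 0.0828, where q is the adjusted p-value of the authors' list, and held no B1 SINE. Peak 2 (chr3:95376513-95378170) lay 19.3 kb from the gene, with a signal value of 0.817 and q = 0.0687, and held the closest B1 copy shown above. Neither passed a q of 0.05, whereas the list reaches up to a q of 0.1.

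*Atf7ip* (chr6:136518789-136610850, plus strand) had 16 peaks. Of all 21774 protein-coding genes, 15 (0.0689%), *Atf7ip* among them, had as many peaks in their window, and 34 had as many per kb. Of the 16, 15 formed a run of 85.5 kb (chr6:136468737-136554201) whose first peak lay 46.5 kb upstream of the gene and whose last lay in intron 1. The 50 kb limit sets the upstream end of this run, since a further peak (chr6:136467944-136468266) lay 50.5 kb upstream. It is not counted in the values of the run. Within the run 38.1% of the bases lay in peaks, the largest gap was 10.9 kb, and 3 gaps were shorter than 1 kb. No peak covered the start of the gene. Peak 9 ended 1.20 kb upstream of it, and the near edge of peak 10 lay downstream of it at chr6:136519469, with the midpoint at 2.77 kb.

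The signal values of the *Atf7ip* peaks ran from 0.511 to 1.62 with a median of 1.04, and 11 of the 16 had a q under 0.05. The highest was peak 5 (chr6:136497520-136499523), 19.3 kb upstream, at 1.62 with q = 9.92e-05. Beside it lay peak 6 at 1.22 and peak 7 at 1.28, so that the 3 highest signal values of the gene belonged to neighbouring peaks. Inside the gene the 6 peaks (10 to 15) had signal values between 0.511 and 1.11, all below that of peak 5. All 6 lay in intron 1 of 14, which is 40.8 kb long and makes up 44.3% of the gene. The last one, peak 16 (signal value 0.816), stood apart in intron 4 of the neighbouring *Plbd1*, 24.5 kb downstream of *Atf7ip*, and peak 1 lay in the only intron of the non-coding gene *Gm36897*.

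B1 SINEs were found in 6 of the 16 *Atf7ip* peaks, 5 of the 9 upstream peaks and 1 of the 6 in the gene. Peak 4, which spans 8 GATC fragments and 5.22 kb, held 3 copies, at 94.3, 92.9 and 75.2% identity. The only B1 copies in the gene's peaks were both in peak 10, at 77.4 and 77.9% identity. The other 5 peaks in intron 1 held none, including peak 11, which had a signal value of 1.10 and q = 0.00427.

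**Figure D2:**
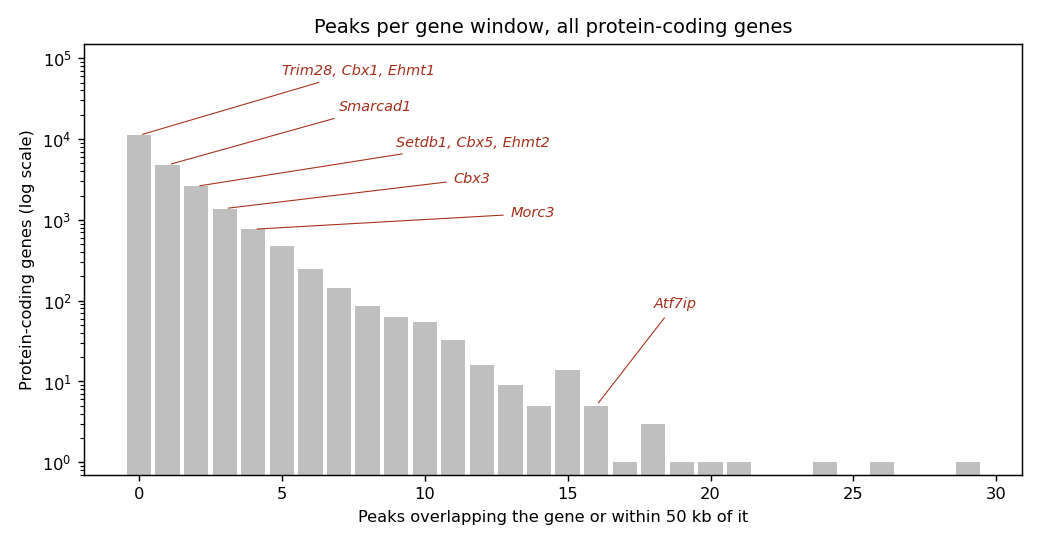
Number of protein-coding genes (y axis, log scale) by the number of peaks that overlap the gene or lie within 50 kb of it (x axis), over all 21774 genes, with the 10 corepressor genes named at their bars. *Atf7ip* stands in the tail at 16 peaks, and the other 9 genes stand at 0 to 4.

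*Cbx1*, *Cbx3* and *Cbx5* encode HP1β, HP1γ and HP1α, the readers of methylated H3 lysine 9. *Cbx1* (chr11:96788680-96808982, plus strand) had no peak within 50 kb and the nearest one lay 108 kb downstream, the farthest of the 10 genes. *Cbx3* (chr6:51470154-51483704, plus strand) had 3 peaks but none in the gene. Peaks 1 and 2, 26.6 and 23.8 kb upstream with signal values of 1.02 and 1.15, lay in intron 1 of *Nfe2l3*, a gene for a CNC-bZIP transcription factor. Peak 3 lay 17962 bp downstream in intergenic sequence towards *Snx10*, with a signal value of 1.35 and q = 0.0993. Its signal value was higher than that of 3 in 4 peaks of the list (upper quartile 1.06) while its q was close to the list's limit, so that signal value and q order these peaks differently.

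*Cbx5* (chr15:103191546-103239904, minus strand) had 2 peaks that flank its start. Peak 1 (chr15:103235764-103237975) lay in intron 1 of 4, with its midpoint 3.04 kb downstream of the start, a signal value of 0.938 and q = 0.0187. It held 4 B1 SINEs in 2.21 kb, at 80.2, 75, 72.9 and 92.2% identity, all on the plus strand and so antisense to the gene. Peak 2 (chr15:103247081-103249481) lay 7.18 kb upstream, with the lowest signal value of the 30 peaks, 0.501, and its midpoint fell in the last of 3 exons of *Nfe2*, the gene of a related CNC-bZIP factor. It held 2 B1 SINEs, at 83.3 and 90.5% identity.

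*Ehmt1* and *Ehmt2* encode GLP and G9a, which form the heterodimer that mono- and dimethylates H3 lysine 9. *Ehmt1* (chr2:24790769-24919643, minus strand) is the longest of the 10 genes, at 129 kb, and its window held the most B1 SINEs, 103, and the most GATC fragments, 569, but no peak. The nearest peak lay 56.9 kb upstream. *Ehmt2* (chr17:34898463-34914073, plus strand) had 2 peaks, both outside the gene, at 18.4 kb upstream in intron 3 of *C2* and at 45.1 kb downstream. The second of them was the only 1 of the 30 peaks whose midpoint lay in a promoter (1000 bp upstream to 100 bp downstream of a curated transcript start), that of *Hspa1b*, a gene of inducible HSP70. Over all peaks 2.31% lay in a promoter. Both *Ehmt2* peaks had low signal values, 0.747 and 0.530, and neither held a B1 SINE, although the window had 51.

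*Morc3* encodes a chromatin ATPase and *Smarcad1* a chromatin remodeller that binds TRIM28. *Morc3* (chr16:93832121-93876077, plus strand) had 4 peaks. Peak 3 (chr16:93833934-93834336) lay in its intron 1 of 16, 2.01 kb downstream of the start, and was a single GATC fragment of 403 bp, the shortest of the 30 peaks, with a signal value of 1.27 and q = 0.0222. It held no B1 SINE and no AP-1 core motif (TGACTCA or TGAGTCA). Peaks 1 and 2 lay in introns 23 and 26 of 36 of the neighbouring *Dop1b*, and peak 4 lay 34.8 kb downstream in intergenic sequence between *Chaf1b* and *Cldn14*. Peak 4, at 5.59 kb the longest of the 30, held 3 B1 SINEs at 95.3, 85 and 94.3% identity.

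*Smarcad1* (chr6:65042591-65116061, plus strand) had 1 peak (chr6:65044098-65045070), in its intron 2 of 23. Its midpoint lay 1.99 kb downstream of the start, and it had a signal value of 0.906 and q = 0.0662. It held the B1 copy shown above, at 91.5% identity, and 1 AP-1 core motif. The next peak lay 718 kb downstream of the gene, the widest distance from a gene to its next peak among the 10, so that this single fragment stood alone.

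Of the 30 peaks, 12 overlapped 1 of the genes or lay within 10 kb of it. At 100 kb 9 of the 10 genes had a peak. The share of all protein-coding genes at 100 kb was not computed. It was already 49.0% at 50 kb, so the 9 are not a result about the group. The farthest peak inside the 50 kb limit was *Morc3* peak 1, whose near edge lay 49.5 kb from the gene. The nearest one outside this limit lay 50.5 kb upstream of *Atf7ip* (chr6:136467944-136468266, signal value 0.948) at the end of the run. The next ones outside lay 54.5 kb upstream of *Cbx5* and 56.9 kb upstream of *Ehmt1*.

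The windows of 9 of the 10 genes were rich in B1 SINEs, and that of *Atf7ip* was close to the median gene. The median protein-coding gene window held 16.1 B1 SINEs per 100 kb, and each of the 10 windows held more, from 18.2 at *Atf7ip* to 53.9 at *Cbx5*. The number of peaks did not follow this density. *Atf7ip* had the fewest B1 SINEs and the most peaks, and the 3 genes without a peak had 206 B1 SINEs in their windows. Spearman's rho between B1 SINEs and peaks per 100 kb was -0.28 over the 10 genes, which share no window. It was 0.35 over all protein-coding genes, whose windows overlap. The value over the 10 genes includes *Atf7ip*, at the extreme of both measures, and was not computed without it. It is therefore not read as a trend of the group against that of all genes.

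**Figure D3:**
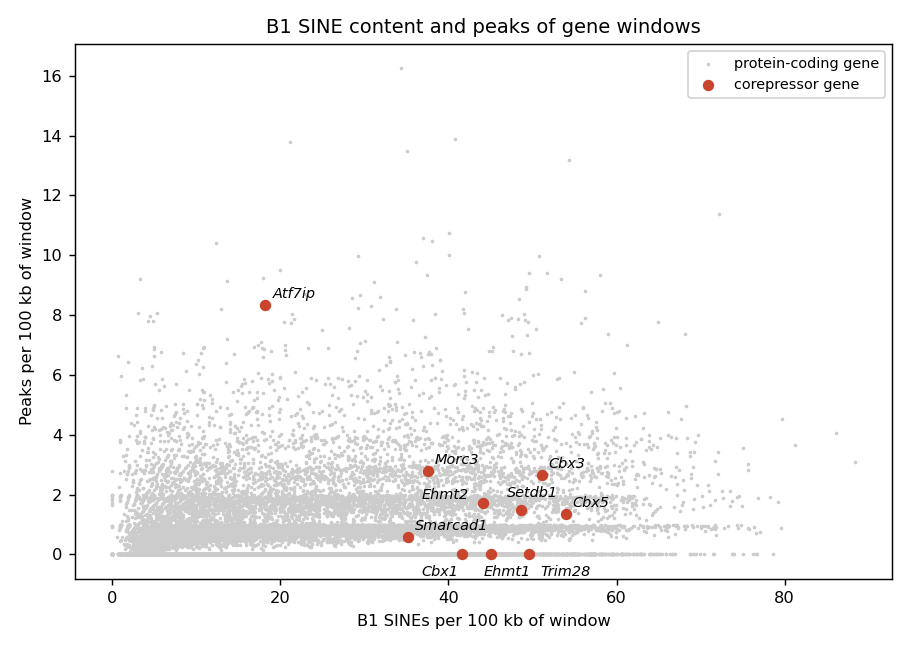
B1 SINEs per 100 kb of gene window (x axis) and peaks per 100 kb (y axis), with all protein-coding genes in grey and the 10 corepressor genes in red. *Atf7ip* lies at 18.2 B1 SINEs and far above the other 9, which lie between 35 and 54 B1 SINEs per 100 kb and below 3 peaks.

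Most B1 SINEs near these genes were outside peaks. Of 610 in the 10 windows, 21 (3.44%) lay in a peak, against 2.55% of all 279619 B1 SINEs of the genome. Peaks covered 3.96% of the bases of these windows and 1.15% of those of the genome. The B1 share was thus below the coverage in the windows and above it in the genome. At *Atf7ip* 9 of 35 (25.7%) lay in a peak, where peaks covered 18.4% of the window, and at *Cbx5* 6 of 80 (7.50%), where peaks covered 3.11%. Without *Atf7ip* the share was 12 of 575 (2.09%), and peaks covered 1.80% of those windows. The median identity to the query was 84.2% for the 21 copies in peaks and 89.2% for the other 589, and over the genome it was 90.8% in peaks and 87.3% outside. The lower value in peaks rested largely on *Atf7ip*, since without it the medians were 87.8% for 12 copies in peaks and 89.3% for 563 outside.

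Of the 30 peaks, 13 (43.3%, Wilson 95% interval 27.4 to 60.8) held a B1 SINE, against 32.8% of all peaks and 32.3% of peaks of similar length. The background lay inside the interval, which covers counting error only, and peaks of 1 gene are neighbours rather than independent draws. At *Atf7ip* the count was 6 of 16 peaks and at the other 6 genes with peaks 7 of 14.

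The AP-1 core motif, TGACTCA or its reverse complement TGAGTCA, is the binding sequence of JUN and FOS dimers, which are abundant in fibroblasts. It was found in 12 of the 30 peaks (40.0%, Wilson 95% interval 24.6 to 57.7), against 44.2% of all peaks and 43.7% of peaks of similar length. Of the 30 peaks, 7 held both a B1 SINE and the motif, 6 a B1 SINE only, 5 the motif only and 12 neither. The surroundings of 4 motifs are printed, with the motif in capitals, from the peak nearest to *Setdb1*, the *Smarcad1* peak and the *Atf7ip* peak with the highest signal value, where 2 motifs lie close together.
Setdb1 peak 1, chr3:95360675-95360711, plus strand: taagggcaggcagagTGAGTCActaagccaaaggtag
Smarcad1 peak 1, chr6:65044257-65044293, plus strand: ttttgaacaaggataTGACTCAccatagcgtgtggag
Atf7ip peak 5, chr6:136499403-136499439, plus strand: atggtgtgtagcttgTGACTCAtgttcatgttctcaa
Atf7ip peak 5, chr6:136499428-136499464, plus strand: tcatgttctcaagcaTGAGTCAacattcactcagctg
Both motifs of *Atf7ip* peak 5 lay outside its B1 copy.

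The peak with the lowest q of the 30 was *Morc3* peak 1 (chr16:93778044-93782621), in intron 23 of *Dop1b*, with a signal value of 1.39 and q = 7.5e-05. It spans 6 GATC fragments and 4.58 kb and held a B1 SINE at 93.6% identity. It also held 12 matches to the AP-1 core motif, a number that 13 of all 15119 peaks (0.0860%), this one included, reached. Of the 12 matches, 11 stood exactly 40 bp apart in a tandem repeat that ends 109 bp before the B1 SINE. Both the repeat and this B1 SINE lay more than 50 kb from *Morc3*, since only the near end of the peak reached into its window. The first 280 bp of the repeat are printed, with 7 motifs in capitals.
Morc3 peak 1, chr16:93778248-93778527, plus strand: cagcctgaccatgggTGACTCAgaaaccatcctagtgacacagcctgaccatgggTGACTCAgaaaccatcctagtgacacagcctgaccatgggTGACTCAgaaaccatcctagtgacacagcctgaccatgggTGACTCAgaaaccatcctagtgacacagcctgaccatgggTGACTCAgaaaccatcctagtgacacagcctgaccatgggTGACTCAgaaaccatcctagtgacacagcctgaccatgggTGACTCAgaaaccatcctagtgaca
The first 7 units of the repeat were identical to each other. A match to these letters is a description of the sequence, and binding of AP-1 was not measured.

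The signal values of the 30 peaks ran from 0.501 to 1.62, with a median of 0.997, within the range of all peaks (0.227 to 8.66). Of the 30, 17 had a q under 0.05, against 52.5% of all peaks, and 10 also had a signal value above 1, against 26.4% of all peaks. These 10 were 7 at *Atf7ip*, 2 at *Morc3* (peaks 1 and 3) and 1 at *Cbx3* (peak 1), so that by this stricter limit 3 of the 10 genes had a peak within 50 kb, against 21.7% of all protein-coding genes. A peak that passed it overlapped the gene at 2 of the 10 genes, *Atf7ip* and *Morc3*, against 6.18% of all protein-coding genes. With the 25% of peaks that had the highest −log10 q, 4 of the 10 genes had a peak within 50 kb, against 19.9% of all protein-coding genes.

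**Figure D4:**
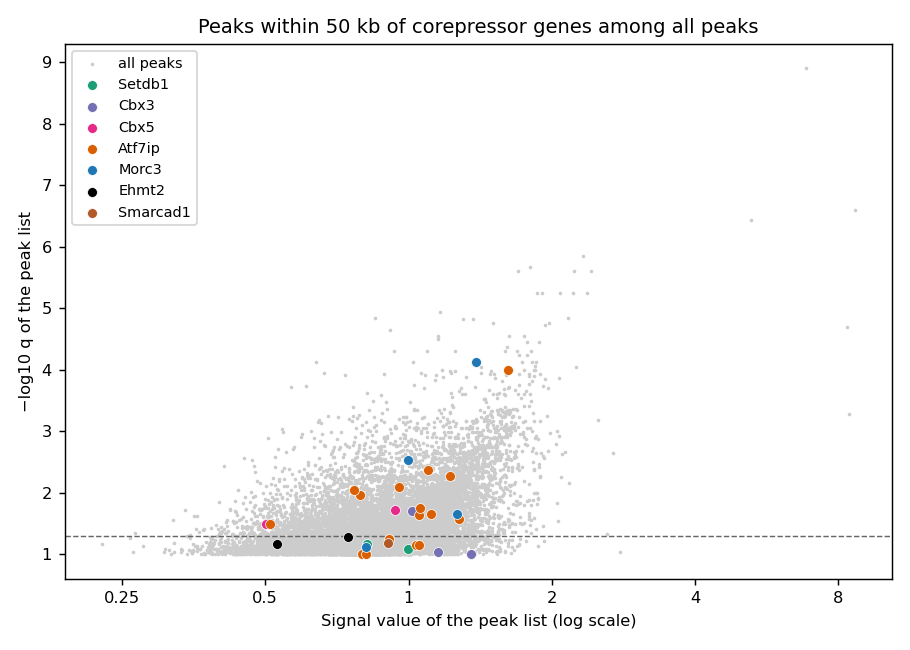
Signal value (x axis, log scale) and −log10 q (y axis) of all 15119 peaks in grey and of the 30 peaks within 50 kb of a corepressor gene in colour by gene, with the dashed line at a q of 0.05. *Atf7ip* peak 5 and *Morc3* peak 1 stand above the other 28, and both *Ehmt2* peaks lie below the line.

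By midpoint, 16 of the 30 peaks lay in an intron, 12 between genes, 1 in an exon and 1 in a promoter, while over all peaks 45.7% were intronic and 49.9% intergenic. Of the 9 peaks inside the 10 genes, 8 lay in the first intron and the *Smarcad1* peak in the second, and over all intronic peaks of the list 50.7% lay in the first intron of their host transcript. Of the 8, 6 were those of *Atf7ip*, with midpoints 2.77 to 35.1 kb from the start, and without this gene the count was 2 of 3. First introns were long in *Cbx5* (26.5 kb, 54.8% of the gene) and *Atf7ip*, and shorter in *Morc3* (9.02 kb, 20.5%). Long first introns also occur in *Cbx1* (11.4 kb) and *Ehmt1* (32.5 kb), which had no peak.

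Other genes of heterochromatin were taken as 5 lists chosen by function, with 51 genes in all. Of these, 38 (74.5%) had a peak within 50 kb and 21 (41.2%) a peak in the gene, beside shares of 49.0% and 17.4% over all protein-coding genes. Shares among genes within the range of length or B1 SINE density of the 51 genes were not computed. The counts are therefore a description and not a result about these lists. A peak overlapped the gene in 3 of 9 H3 lysine 9 methyltransferases and partners (*Zfp644*, *Prdm2* and *Prdm16*), in 2 of 6 HUSH and MORC genes (*Tasor* and *Morc2a*) and in 4 of 8 TRIM28-related and SUMO pathway genes (*Trim24*, *Trim33*, *Sumo3* and *Pias1*). It did so in 7 of 16 genes of the NuRD and histone deacetylase corepressors (*Hdac2*, *Mta1*, *Mta3*, *Mbd2*, *Gatad2a*, *Gatad2b* and *Ncor1*) and in 5 of 12 HP1 partners and histone chaperones (*Daxx*, *Atrx*, *Lrif1*, *Smchd1* and *Trp53bp1*). *Chaf1b*, of the last list, lies in the window of *Morc3* and shares peaks with it.

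The closest relatives of *Trim28* differed from each other, and only *Trim66* was like it in having no peak. *Trim24*, which encodes TIF1α, had 12 peaks in the gene, a number that 23 protein-coding genes reached, *Trim24* included, and all 12 lay in intron 1 of 18, with signal values from 0.955 to 2.07. *Trim33*, which encodes TIF1γ, had 2 peaks, also in intron 1 of 18, with signal values of 1.09 and 0.884, and *Trim66* had none. At *Trim24* 5 of the 12 peaks held a B1 SINE. Over the 21 genes the peaks in the gene numbered 43, of which 32 lay in a first intron and 21 held a B1 SINE. Over the whole list 50.7% of intronic peaks lay in a first intron, and 32.8% of all peaks held a B1 SINE. Of the 32, 12 were those of *Trim24*, and the counts without this gene were not computed.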

How the data were processed

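DamID-seq was analysed in 5 Dam-ZFP266 and 5 Dam only samples of MEFs. Per the labels and the study's methods, reads were checked with FastQC, adapters were removed with Cutadapt, reads were aligned to GRCm38.p6 with BWA and counted per DpnII fragment with Rsubread, and peaks were called with Daim. Tool versions and the treatment of reads that map to several B1 copies are not given in the sources used here. The deposited list holds for each peak a score and a signal value as the authors' caller gave them, and the authors' −log10 q-value. The score and the −log10 p-value were not used further. The largest q in the list was 0.09996.

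The 10 genes, and the lists of other genes, were chosen with earlier results of these data known. An item of these lists is not reported here and was left out of the counts. Named are the 10 genes, the gene at each peak's midpoint or else the gene with the nearest transcript start, and of the other heterochromatin genes those with a peak overlapping the gene. *Trim66*, *Chaf1b* and the windows' neighbours were named after their values had been seen.

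Gene positions came from RefSeq records and locations from curated transcripts. A peak counted as near with any base within 50 kb. The B1 query was built by blastn 2.17.0 from the 7SL gene *Rn7s1*, with the majority sequence of aligned copies (mafft 7.526) refined on chromosome 19. Elements were alignments of at least 80 bp at 70% identity. Peaks of similar length were within 20%. Python 3.11.15, pandas 2.3.3, scipy 1.17.1, pysam 0.24.0, Biopython 1.88 and matplotlib 3.10.9 were used, and the steps were tested on simulated data. The authors' read coverage was not used here. Alternatives covered the distance, peak threshold, peak part, gene extent, B1 definition and promoter definition.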

Additional observations from a re-analysis of the deposited data

How the results depend on the processing

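The counts depended mostly on the peak threshold, the distance and *Atf7ip*. Of 22 alternatives, 8 stayed within 1.5 times the reported count and 14 did not. Within 0 bp, 4 of the 10 genes had a peak and 21 of the 51 other heterochromatin genes (17.4% of all genes did). With peaks of q under 0.05 and signal value above 1, 3 of the 10 genes had a peak within 50 kb, 2 a peak in the gene (21.7% and 6.18% of all genes did), 10 peaks remained near them, 5 of these 10 held a B1 SINE (34.5% of all such peaks did), and 18 of the 51 other genes had a peak. With the 25% of peaks that had the highest −log10 q, 4 genes had a peak within 50 kb (19.9% of all genes did). Without *Atf7ip*, 14 peaks were left, 7 of them with a B1 SINE, and 12 B1 SINEs of the windows lay in a peak. With B1 SINEs of at least 100 bp at 85% identity, 8 of 30 peaks held one (23.7% of all peaks did) and 10 of 341 B1 SINEs lay in a peak. With a promoter of 2000 bp upstream and 500 bp downstream, 2 peaks reached one. The share of all peaks that reach this wider promoter is not given, nor is the share of all such stricter B1 SINEs in a peak. The alternatives without *Atf7ip*, for the other genes and for B1 SINEs in stricter peaks were chosen after seeing the data. No paired analysis was possible because the authors' list pools the 10 samples, and for the same reason no replicate could be left out.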
